A study of Mus musculus with 6 samples.

Results

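Small nucleolar RNA (snoRNA) host genes that make long noncoding RNA (lncRNA) were examined in the cochlea of young and old C57BL/6 mice. The 10 genes were Gas5, Snhg1, Snhg3, Snhg5, Snhg6, Snhg8, Snhg12, Snhg15, Snhg18 and 2410006H16Rik, out of 25823 genes for which transcript values were summed. They were chosen by their function as snoRNA hosts, and Snhg15 and 2410006H16Rik were in addition selected on their higher level in old mice, so that their change with age is given as a description without a test. The table held 56 transcripts of these genes, of 78 that GENCODE M21 annotates. Young mice were 1 month old and old mice 12 months old, all of the C57BL/6 strain, housed specific-pathogen-free, and no treatment is named. This strain loses hearing early, which limits it as a model of normal ageing. The tissue was the basilar membrane dissected from the cochlea, and each of the 3 samples per age was a mixture from 3 mice, so the spread between samples understates the spread between animals.

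Levels are in FPKM, fragments per transcript length and library size, which allows genes of different length to be compared, with less certainty for short transcripts. All markers of hair cells, supporting cells, neurons and Schwann cells that were searched were detected. Marker levels of several cell types moved with age. All 5 macrophage markers were higher in old samples, with summed levels of 76.3 to 106 FPKM in young and 456 to 554 FPKM in old samples. Of 6 hair cell markers 3 fell (Ocm, Slc26a5 and Calb2), and all 5 neuron markers fell. The hair cell markers summed to 703 to 949 FPKM in young and 366 to 435 FPKM in old samples. Most of these sums was Calb2 alone, with 504 to 838 FPKM in young and 303 to 349 FPKM in old samples. Myo7a and Otof overlapped between ages (log2 changes 0.00 and -0.33). Pou4f3 was below without overlap but did not pass the limma test (log2 change -1.33, adjusted p = 0.0567). Bone markers summed to 17.6 to 183 FPKM in young and 5.09 to 11.7 FPKM in old samples, and 2 of 4 fell. None of the 5 supporting cell markers, 5 erythrocyte markers and 5 markers of cycling cells passed the limma test (unadjusted p under the threshold for 1, 0 and 0), and 2 of 4 Schwann cell markers fell. In bulk tissue, fewer cells of a type and less RNA per cell cannot be told apart, and the part of these shifts in the changes below was not tested.

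A snoRNA host gene carries its snoRNAs inside introns. The gene is transcribed and spliced, the excised intron is opened and trimmed, and the snoRNA is left bound to a set of core proteins. Box C/D snoRNAs then guide the methylation of ribosomal RNA and box H/ACA snoRNAs guide its pseudouridylation. The spliced exons of the noncoding hosts are long noncoding RNAs, several of which start with a run of pyrimidines like the mRNAs of ribosomal proteins, are read by ribosomes over short frames and are removed by nonsense-mediated decay. Gas5 was first found as a transcript that accumulates when cells stop growing.

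The 10 genes hold 32 annotated snoRNA loci. Gas5 holds 9, Snhg1 8, Snhg12 4 and 2410006H16Rik 3, Snhg3 and Snhg5 hold 2 each, and the others hold 1 each. The table listed 0 transcripts of the snoRNA type, so the values below are of the host RNAs and not of the snoRNAs. The letters TGATGA within the first 20 bases together with CTGA within the last 20, on the strand of the locus, stood in 20 of the 32 loci (62.5%), against 20.2% of 1558 snoRNA transcripts of the annotation. These letters are those of box C and box D. A length over 100 nt with ACA in the last 8 bases, as in box H/ACA snoRNAs, was found in 6 loci (18.8%), against 44.3% of those transcripts. A match is a description of the letters only.

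**Figure D1:**
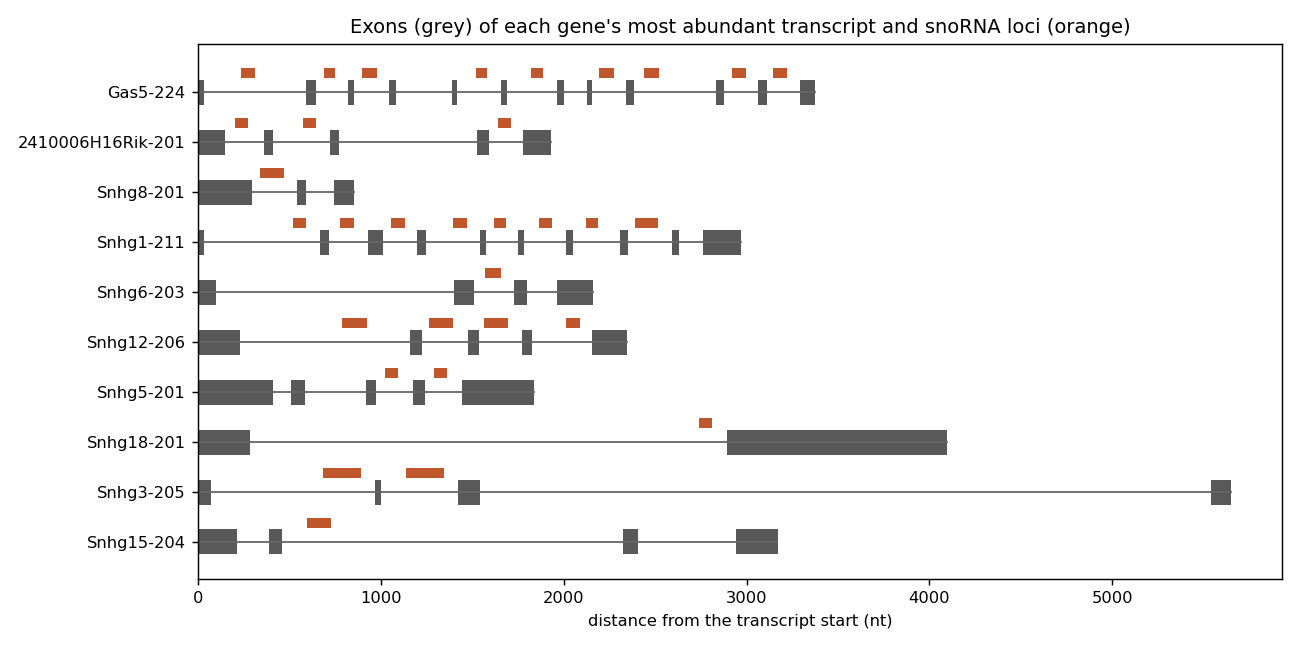
Exons (grey boxes) of the most abundant transcript of each host gene and the annotated snoRNA loci of the gene (orange), against the distance from the transcript start in nt. Gas5-224 has 12 exons and 9 snoRNA loci in its introns, while Snhg8, Snhg6, Snhg18 and Snhg15 hold 1 locus each.

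The snoRNAs of the host genes that the results turn on are shown here from GENCODE M21 (GRCm38), with the box C, box D or ACA letters in capitals. Snord49b (chr11:62603079-62603150), Snord49a (chr11:62603450-62603521) and Snord65 (chr11:62604515-62604586) lie on the plus strand in introns of 2410006H16Rik. Snora9 (chr11:6528033-6528165) lies on the minus strand in Snhg15 and Snora24 (chr3:123507937-123508066) on the minus strand in Snhg8. Snord50a (chr9:88521529-88521600) and Snord50b (chr9:88521797-88521868) lie on the minus strand in Snhg5. Snord78 (chr1:161036984-161037049, plus strand) lies in Gas5, in the intron before the exon shown further below, and holds no match to the full search.
Snord49b: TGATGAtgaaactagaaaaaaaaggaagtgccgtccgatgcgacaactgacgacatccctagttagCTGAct
Snord49a: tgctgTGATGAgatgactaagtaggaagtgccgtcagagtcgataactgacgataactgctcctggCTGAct
Snord65: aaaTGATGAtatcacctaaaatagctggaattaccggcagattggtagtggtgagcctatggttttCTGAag
Snora9: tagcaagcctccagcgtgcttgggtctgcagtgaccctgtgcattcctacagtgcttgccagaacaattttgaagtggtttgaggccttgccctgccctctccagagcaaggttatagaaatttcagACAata
Snora24: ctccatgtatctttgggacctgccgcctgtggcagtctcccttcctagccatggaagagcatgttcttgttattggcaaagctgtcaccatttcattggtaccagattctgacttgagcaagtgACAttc
Snord50a: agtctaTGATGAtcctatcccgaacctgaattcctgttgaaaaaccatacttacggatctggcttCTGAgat
Snord50b: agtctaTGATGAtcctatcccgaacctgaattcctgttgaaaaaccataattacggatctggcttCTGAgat
Snord78: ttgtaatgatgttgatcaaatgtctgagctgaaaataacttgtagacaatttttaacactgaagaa
Snord50a and Snord50b have 72 bases each and differ at 1 position, C50A, counted from 1 at the first base with the base of Snord50a first.

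The hosts differed widely in level. Gas5 had the highest level, with 149 to 222 FPKM over the 6 samples, followed by 2410006H16Rik (81.5 to 147 FPKM) and Snhg8 (57.0 to 82.7 FPKM). Each of these was above the next gene in 6 of 6 samples. Snhg1 (34.9 to 55.5 FPKM) and Snhg6 (42.9 to 48.6 FPKM) came next and did not differ beyond their spread, since Snhg1 was the higher in 3 of 6 samples. Snhg12 (18.0 to 31.0 FPKM) and Snhg5 (11 to 14.4 FPKM) followed, each above the next gene in 6 of 6 samples. Snhg18 (7.11 to 10.2 FPKM) and Snhg3 (2.06 to 9.73 FPKM) overlapped in both ages. Snhg15 had the lowest mean level (1.78 to 6.63 FPKM) and overlapped with Snhg3 in old samples.

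**Figure D2:**
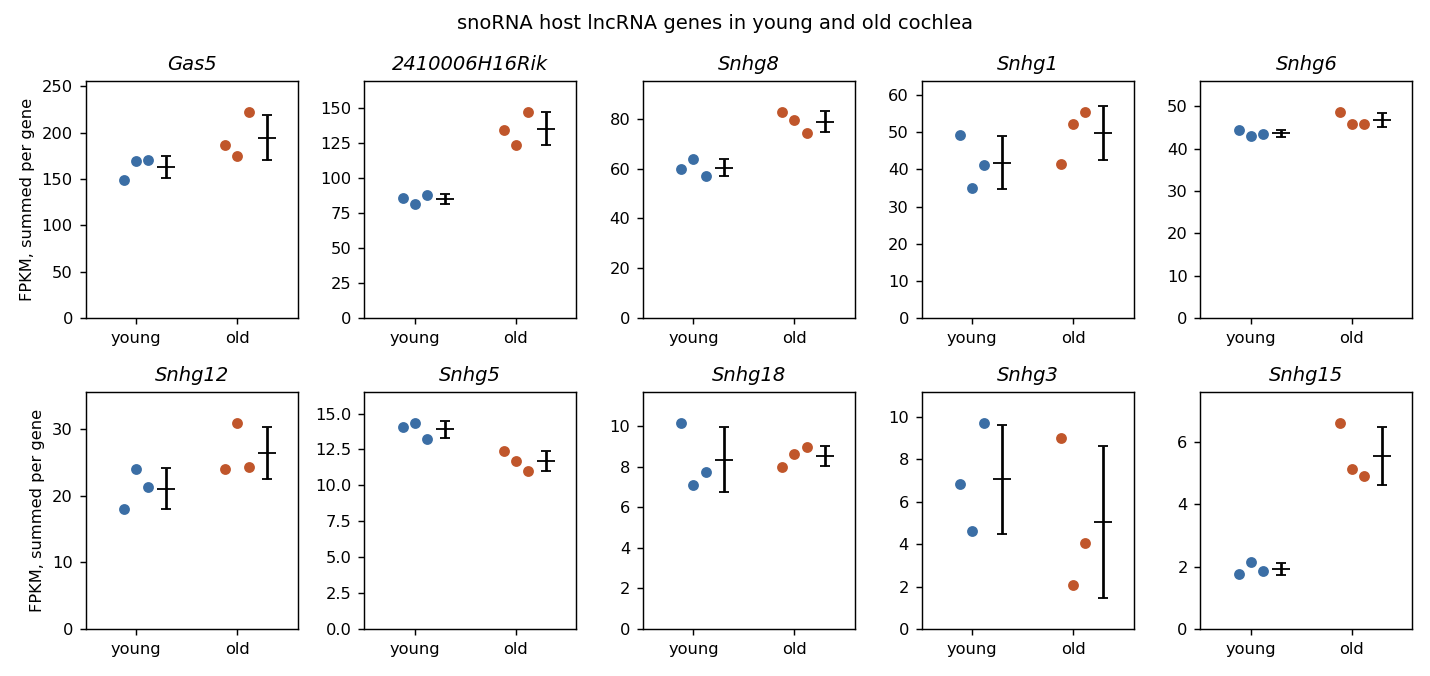
FPKM summed per gene for each of the 10 host genes, by sample; blue points are the 3 young samples, orange points the 3 old samples, and black marks the mean with SD. Old samples lie above all young samples for Gas5, 2410006H16Rik, Snhg8, Snhg6, Snhg12 and Snhg15, and below them for Snhg5.

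To find how the hosts changed with age, each gene was compared between old and young samples with limma on log2(FPKM + 0.1), with p-values adjusted over all 19649 genes tested. Of the 8 genes that were not selected on their rise, Snhg8 passed the threshold of 0.05 as higher in old samples and none as lower. Of all genes, 5.41% were called higher and 3.68% lower. By unadjusted limma p, 2 of the 8 were higher and 1 lower, compared with 2843 and 2560 of all 19649 genes. The change was positive in 6 of the 8 and negative in 2, with a median log2 change of 0.17 against 0.009 over all genes. In 4 of the 8 every old sample was above every young sample and in 1 every old sample was below, against 17.5% and 16% of all genes.

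Snhg8 (chr3:123507552-123508404, minus strand), the host of Snora24, had 60.0, 64.0 and 57.0 FPKM in the young samples and 82.7, 79.4 and 74.2 FPKM in the old samples. The groups did not overlap. The means were 60.3 ± 3.50 and 78.8 ± 4.28 FPKM (SD, n = 3), 1.31-fold higher in old mice, and the log2 change was 0.38 (SE 0.07, limma adjusted p = 0.0265). The call was not stable to single samples, since leaving out any sample but the third young one raised the adjusted p above the threshold, to between 0.0561 and 0.0992, while the log2 change stayed between 0.34 and 0.43. It was also above the threshold without the filter on low values (0.0706), without the variance trend (0.0917) and with adjustment over lncRNA genes only (0.0767). Nearly all of the level came from Snhg8-201, a spliced RNA of 448 nt and 3 exons, which held 95.9 to 99.1% of the gene in every sample. Its own change was 0.39 on the log2 scale (SE 0.07, limma adjusted p = 0.0617 over all transcripts). The other transcript, Snhg8-203, was between 0.684 and 3.42 FPKM with overlapping groups.

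2410006H16Rik (chr11:62602877-62604807, plus strand) hosts a pair of Snord49 copies and Snord65. It had 86.1, 81.5 and 88.0 FPKM in the young samples and 135, 124 and 147 FPKM in the old samples. The lowest old sample was above the highest young one, as follows from how the gene was selected. The means were 85.2 ± 3.34 and 135 ± 11.8 FPKM (SD, n = 3), a ratio of 1.59 and a log2 difference of 0.67 (SE 0.08). All of it was assigned to 1 transcript of 462 nt and 5 exons, 2410006H16Rik-201.

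Snhg15 (chr11:6525591-6528760, minus strand), the host of Snora9, had 1.78, 2.15 and 1.87 FPKM in the young samples and 6.63, 5.15 and 4.92 FPKM in the old samples. All old samples were above all young ones, which again follows from the selection. The ratio of the means was 2.88, with 1.93 ± 0.192 and 5.57 ± 0.929 FPKM (SD, n = 3), and the log2 difference was 1.47 (SE 0.18). Of its 2 transcripts in the table, Snhg15-204 (592 nt, 4 exons) carried the difference, with 0.888, 2.15 and 1.87 FPKM in young and 5.90, 5.15 and 4.92 FPKM in old samples. This rests on few reads, estimated at 3.56 to 8.89 fragments per young sample and 19.8 to 26.3 per old sample. Snhg15-201 was above 0.1 FPKM in the first young sample (0.890 FPKM) and the first old sample (0.733 FPKM) only.

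Snhg12 (chr4:132308623-132311024, plus strand), which hosts Snora16a, Snora44, Snora61 and Snord99, had 18.0, 24.1 and 21.3 FPKM in young and 24.1, 31.0 and 24.3 FPKM in old samples. The lowest old sample lay just above the highest young one. The log2 change of 0.33 (SE 0.14) did not pass the test (limma adjusted p = 0.187). Of its 6 transcripts, Snhg12-206 was the most abundant, with 46.8 to 68.0% of the gene. Snhg12-205 had 2.54, 1.59 and 2.94 FPKM in young and 4.04, 2.98 and 4.46 FPKM in old samples (log2 change 0.70, SE 0.29, limma adjusted p = 0.293), without overlap. The other 5 overlapped between ages.

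Snhg1 (chr19:8723475-8726443, plus strand), the host of Snord22 and 7 other loci, had 49.3, 34.9 and 41.3 FPKM in young and 41.5, 52.3 and 55.5 FPKM in old samples. The groups overlapped, and the log2 change was 0.25 (SE 0.15, limma adjusted p = 0.328). The spliced transcript Snhg1-211, with 10 exons, held 64.8 to 80.4% of the gene. Snhg1-203, a retained intron transcript of 2348 nt whose exons overlap 6 of the snoRNA loci, had 0.981, 0.893 and 0.883 FPKM in young and 2.08, 2.21 and 1.97 FPKM in old samples. The groups were far apart for their spread, but the log2 change of 1.10 (SE 0.27) did not pass the test over all transcripts (limma adjusted p = 0.108). The longer retained intron transcript Snhg1-215, which overlaps 7 of the loci, was between 2.38 and 2.48 FPKM in young samples and between 2.52 and 2.69 FPKM in old samples. Its fitted change was 0.10 on the log2 scale (SE 0.19, limma adjusted p = 0.829). Of the remaining 9 transcripts, Snhg1-210 was near 0 in young samples and in the first old sample and had 0.821 and 2.41 FPKM in the other old samples, and Snhg1-212 had 1.1, 1.40 and 0.587 FPKM in young samples and nearly 0, 0.533 and 0.543 FPKM in old samples. Neither passed the test (log2 changes 2.62, SE 1.20, and -1.66, SE 0.85, limma adjusted p = 0.328 and 0.376). The other 7 overlapped, between 0 and 8.47 FPKM.

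Snhg6 (chr1:9941959-9944118, minus strand), the host of Snord87, had 44.4, 42.9 and 43.4 FPKM in young and 48.6, 45.8 and 45.9 FPKM in old samples. All old samples were above all young ones, by a small margin. The log2 change was 0.10 (SE 0.06, limma adjusted p = 0.332). Its main transcript Snhg6-203 held 61.5 to 80.3% of the gene, and each of its 5 transcripts overlapped between ages.

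Snhg18 (chr15:32240565-32244662, minus strand), the host of Snord123, had 10.2, 7.11 and 7.77 FPKM in young and 8.0, 8.62 and 8.97 FPKM in old samples, all in 1 transcript of 1486 nt. The old values lay within the range of the young ones. The log2 change was 0.05 (SE 0.15, limma adjusted p = 0.873), and it was -0.06 without the second young sample.

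Snhg5 (chr9:88521050-88522929, minus strand), the host of Snord50a and Snord50b, went the other way, with 14.1, 14.4 and 13.2 FPKM in young and 12.4, 11.7 and 11 FPKM in old samples. No old sample reached the lowest young one. The log2 change of -0.25 (SE 0.09) did not pass the test (limma adjusted p = 0.128).

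Snhg3 (chr4:132348014-132353686, minus strand), the host of Snora73a and Snora73b, was the most variable member, with 6.84, 4.61 and 9.73 FPKM in young and 9.02, 2.06 and 4.08 FPKM in old samples. The groups overlapped, and the log2 change of -0.65 (SE 0.51) did not pass the test (limma adjusted p = 0.450). It was -1.19 without the first old sample and -0.15 without the second. Its SD on the log2 scale was 0.53 in young and 1.04 in old samples. In the second old sample Snhg3-205, the most abundant transcript over all samples, was listed at 0 and Snhg3-204 held all of the gene. Snhg3 overlaps Rcc1 on the same strand over 5592 nt, and reads could be split between both genes.

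**Figure D3:**
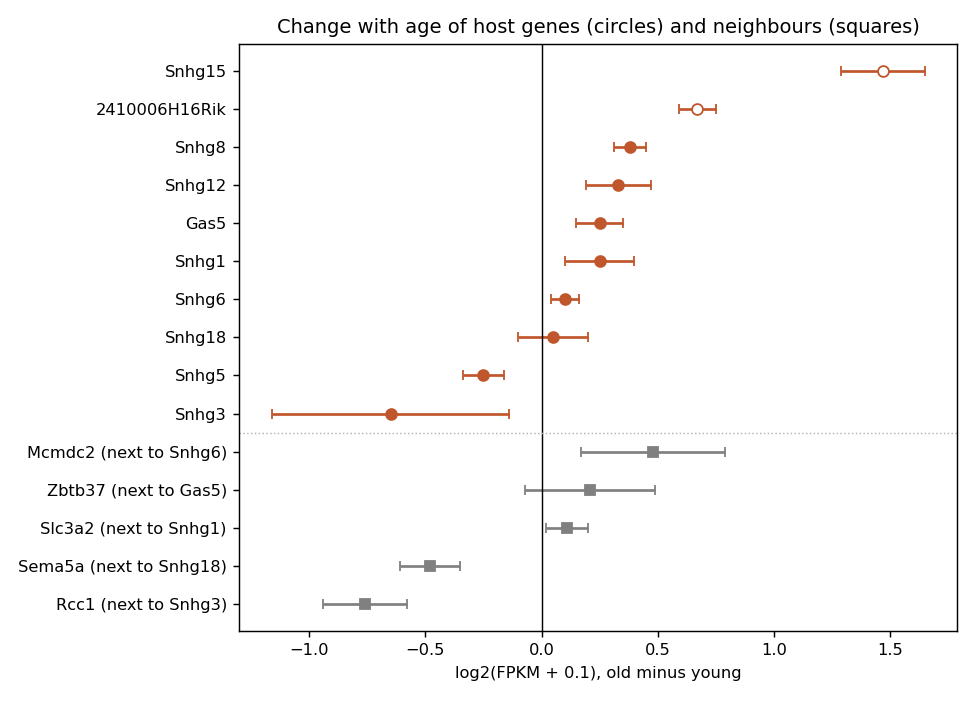
Difference in log2(FPKM + 0.1), old minus young, with its SE, for the 10 host genes (circles, open for the 2 genes selected on their rise) and for the protein-coding genes next to them (squares). Snhg8 at 0.38 is the filled circle past the threshold, and Rcc1 at -0.76 is the square past it.

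Gas5 (chr1:161034422-161038539, plus strand) had 149, 169 and 171 FPKM in young and 187, 175 and 222 FPKM in old samples. Every old sample was above every young sample. The means were 163 ± 11.9 and 195 ± 24.6 FPKM (SD, n = 3), and the log2 change of 0.25 (SE 0.10) did not pass the test (limma adjusted p = 0.165). The gene had 19 transcripts in the table, 15 of them annotated as retained intron and 4 as lincRNA.

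The most abundant Gas5 transcript differed by more FPKM than the gene as a whole. Gas5-224, a spliced RNA of 502 nt and 12 exons, had 54.7, 66.1 and 72.0 FPKM in young and 108, 94.8 and 120 FPKM in old samples. The lowest old sample was well above the highest young one. The log2 change was 0.75 (SE 0.13), and the limma adjusted p over all transcripts was 0.0623. Gas5-210, with 557 nt and 11 exons, had 38.3, 42.6 and 35.7 FPKM in young and 31.3, 32.7 and 37.9 FPKM in old samples, with overlapping groups (log2 change -0.19, SE 0.10, limma adjusted p = 0.394). At low levels, the retained intron transcript Gas5-214 was also above without overlap, with nearly 0 to 1.63 FPKM in young and 1.66 to 4.97 FPKM in old samples (log2 change 2.35, SE 1.07, limma adjusted p = 0.327). Gas5-208 was below, with 0.550 to 0.795 FPKM in young and 0.227 to 0.274 FPKM in old samples (log2 change -1.06, SE 0.47, limma adjusted p = 0.316). The other 15 overlapped between ages.

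The share of each transcript is its FPKM divided by the summed FPKM of its gene, and Gas5 was not selected on its own change with age. Gas5-224 made up 36.6, 39.0 and 42.2% of Gas5 in young samples and 57.6, 54.2 and 54.2% in old samples. The means differed by 16.1 percentage points (39.3 ± 2.81% and 55.3 ± 1.99%, SD, n = 3; exact permutation p = 0.1, two-sided, the smallest that 3 against 3 samples allow). The share of Gas5-210 was 25.6, 25.2 and 20.9% in young and 16.7, 18.7 and 17.1% in old samples, a fall of the mean from 23.9 ± 2.60% to 17.5 ± 1.06% (SD, n = 3; exact permutation p = 0.1). Gas5-209, the third in abundance, had 7.90 to 14.9% in young and 7.22 to 9.22% in old samples, which overlapped.

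Gas5-224 and Gas5-210 differ by 1 exon and by their start. Exon 7 of Gas5-224, of 41 nt (chr1:161037124-161037164), is absent from Gas5-210, which starts 96 nt further upstream (chr1:161035067-161035162). The exon is printed with 20 nt of the neighbouring exons on either side, in capitals for the exon, because the transcripts on either side of the shift differ by it.
Gas5 exon 7: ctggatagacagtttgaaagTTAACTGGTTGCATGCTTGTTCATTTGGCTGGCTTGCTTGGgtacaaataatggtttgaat
Of the 19 Gas5 transcripts 2 contain this exon as annotated, 9 join the exon before it to a later exon and 8 do neither. Transcripts with the exon held 46.6, 49.4 and 54.9% of the FPKM of those 11 in young samples and 67.8, 65.6 and 65.6% in old samples. The groups did not overlap, with a difference of 16 percentage points between the means (exact permutation p = 0.1). This grouping was made after the values were seen, and the FPKM of overlapping transcripts are model estimates of Cuffdiff that share reads. Of the 9 that skip the exon, Gas5-203 and Gas5-209 also lack the next exon (chr1:161037288-161037315), so the percentages do not isolate this exon.

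In Snhg5 the share of a retained intron transcript also differed between ages. Snhg5-204, a retained intron transcript of 883 nt, keeps 201 nt (chr9:88521449-88521649) that the spliced Snhg5-201 removes, and this stretch holds Snord50a, printed above. It had 4.24, 4.71 and 3.44 FPKM in young and 2.24, 2.06 and 1.62 FPKM in old samples. No old sample came near the young ones, with a log2 change of -1.03 (SE 0.22), but the limma adjusted p over all transcripts was 0.0877. Its share of the gene was 30.1, 32.8 and 26.0% in young and 18.1, 17.6 and 14.7% in old samples, 12.8 percentage points lower on average (exact permutation p = 0.1). Snhg5-201 and the other retained intron transcript, Snhg5-206, overlapped between ages.

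**Figure D4:**
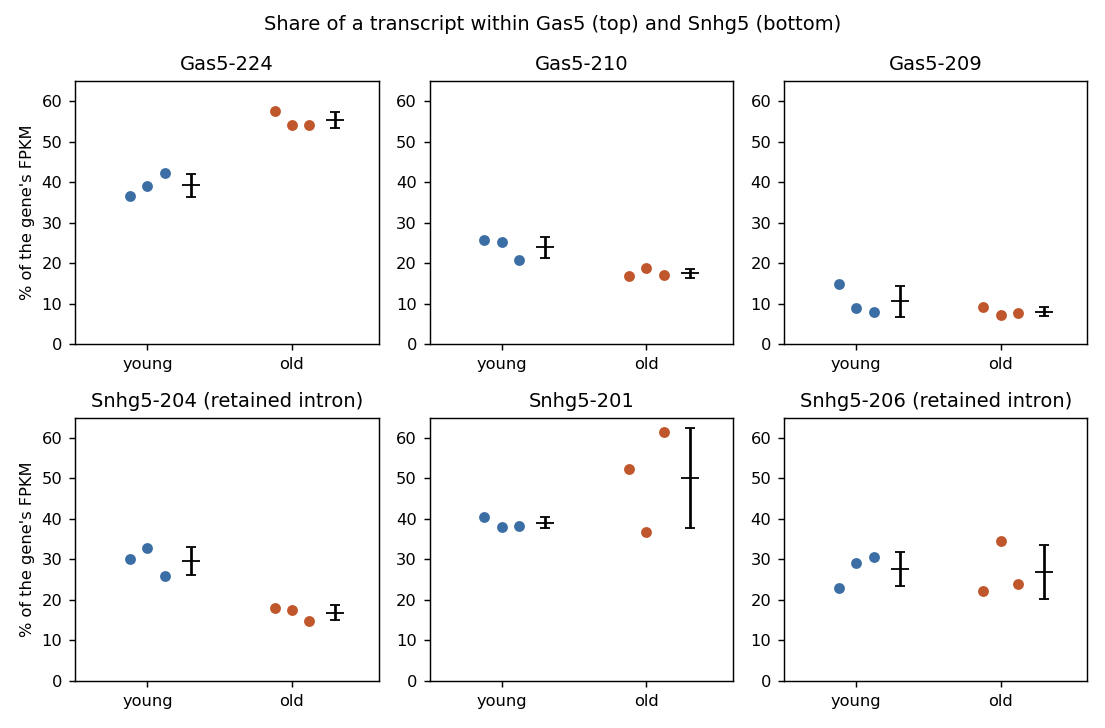
Share of single transcripts in the summed FPKM of Gas5 (top) and Snhg5 (bottom), in percent, by sample; blue points are young, orange points old samples, and black marks the mean with SD. Gas5-224 rises from 36.6 to 42.2% to 54.2 to 57.6%, Gas5-210 and Snhg5-204 fall without overlap, and the other transcripts overlap.

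Across the members, shares were examined for 24 transcripts with a mean share of at least 5%. In 1 of them, Gas5-224, all old samples were above all young ones, and in 2, Gas5-210 and Snhg5-204, below. Over all genes tested, 7.11% of 23281 such shares were higher and 7.43% lower without overlap. The counts of 1 and 2 among the 24 are near these rates, so the members did not stand out in shares. Retained intron transcripts together held 22.4, 26.6 and 28.4% of Gas5 in young and 16.3, 19.3 and 20.8% in old samples, and 53.0, 61.9 and 56.7% of Snhg5 in young and 40.3, 52.1 and 38.6% in old samples. Both shares fell without overlap (exact permutation p = 0.1 each), while that of Snhg1 overlapped. The summed FPKM of these transcripts overlapped for Gas5, with 33.5, 45.0 and 48.5 FPKM in young and 30.5, 33.7 and 46.2 FPKM in old samples, where Gas5-224, part of the total, was higher. For Snhg5 it was lower without overlap, with 7.46, 8.89 and 7.5 FPKM in young and 4.98, 6.09 and 4.25 FPKM in old samples. Of 94 genes with both kinds of transcript, the share of retained intron transcripts was lower without overlap in 7.45%.

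Over all transcripts of the 8 tested genes, 52 of 53 passed the filter on low values. By limma 0 of them passed the test over all 38764 transcripts, in which 0.549% of transcripts were called higher and 0.199% lower. Of the 52, 24 were higher and 27 lower in old samples by the fitted change, 7 were above without overlap and 3 below, and the median log2 change was -0.04. Among all transcripts, 12.6% were above and 12% below without overlap. Without adjustment, 5 of the 52 had a p below the threshold as higher and 1 as lower, compared with 3508 and 3094 of all 38764 transcripts. The count of 5 is near the share over all transcripts.

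Protein-coding genes that overlap a host or start within 2 kb of it were compared too. Rcc1, a chromatin-bound exchange factor for Ran that shares its strand with Snhg3, fell, with 2.34, 2.49 and 2.46 FPKM in young and 1.36, 1.31 and 1.52 FPKM in old samples (log2 change -0.76, SE 0.18, limma adjusted p = 0.0464). The call was lost with any single sample left out (limma adjusted p = 0.0878 to 0.145). Sema5a, a semaphorin gene that starts 148 nt from Snhg18 on the other strand, had 8.97 to 10.2 FPKM in young and 5.79 to 7.38 FPKM in old samples without overlap, but did not pass the test (log2 change -0.48, SE 0.13, limma adjusted p = 0.0605). Slc3a2, the heavy chain of amino acid transporters next to Snhg1, overlapped between ages (log2 change 0.11, SE 0.09, limma adjusted p = 0.483). Zbtb37 next to Gas5 and Mcmdc2 next to Snhg6 overlapped as well.

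The starts of several hosts hold runs of C or T. The 50 bases around the annotated start were taken on the transcribed strand (25 before and 25 from the start, RefSeq, GRCm38.p6). In the window from 5 bases before to 10 bases after the start, the longest run of C or T was determined. Only bases inside the window were counted, so runs of Snhg1 and Snhg5 that continue past its end count in part. Promoters were annotated for 9 of the 10 genes, with 2 for Gas5. A run of at least 6 was present in 6 of the 10 promoters, against 12.8% of 32851 promoters, and a run of at least 9 in 3, against 2.79%. The start regions of Snhg12 (chr4:132308653-132308702), 2410006H16Rik (chr11:62602852-62602901), Snhg8 (chr3:123508312-123508361), Snhg15 (chr11:6528736-6528785) and the second Gas5 start (chr1:161035141-161035190) are printed with the run in capitals for members with higher levels in old samples, and that of Snhg18 (chr15:32244638-32244687) for its longest run, of 10.
Snhg12: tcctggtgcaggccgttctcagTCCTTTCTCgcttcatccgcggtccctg
2410006H16Rik: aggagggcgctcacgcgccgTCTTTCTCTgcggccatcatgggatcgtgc
Snhg8: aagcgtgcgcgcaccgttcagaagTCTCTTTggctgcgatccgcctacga
Gas5: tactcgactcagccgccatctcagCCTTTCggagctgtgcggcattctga
Snhg15: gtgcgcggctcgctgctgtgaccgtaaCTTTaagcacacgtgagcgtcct
Snhg18: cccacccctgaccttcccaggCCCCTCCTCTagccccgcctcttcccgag
Within the window Snhg15, the member with the widest ratio between the ages, has a run of 4, and the first Gas5 start and Snhg5 have 3. In Snhg5 a run of C or T that crosses the end of the window is longer when counted whole. Snhg18, whose groups overlapped, has the longest run.

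Other hosts and the machinery of snoRNAs were described for comparison. Of 26 other lncRNA hosts tested, 0 were called higher by limma and 1 lower, with a median log2 change of -0.11 (6 were above and 4 below without overlap, and as many had an unadjusted p below the threshold). The one that fell was Rian, an imprinted lncRNA with many snoRNAs, with 158, 179 and 114 FPKM in young and 65.4, 76.5 and 76.4 FPKM in old samples (log2 change -1.03, SE 0.16, limma adjusted p = 0.0194). The call was lost without the second young sample or any one old sample (limma adjusted p = 0.0512 to 0.0686). Of 257 hosts of other types, 32 were higher (12.5%) and 6 lower (2.33%). Of the 28 of these that encode ribosomal proteins, a split made after the values were seen, 20 were called higher and 0 lower, with a median log2 change of 0.34. Among the others, 12 of 229 were higher and 6 lower. Of the 4 ribosomal protein genes among the 5 hosts of highest level, Rpl13a (log2 change 0.34, SE 0.11, limma adjusted p = 0.10) and Rps12 (0.30, SE 0.09, 0.0722) did not pass the test, while Rpl32 and Rps3a1 (0.28, SE 0.06, 0.0357) did. Rpl32 had 915, 821 and 841 FPKM in young and 1076, 1057 and 1079 FPKM in old samples (log2 change 0.32, SE 0.07, limma adjusted p = 0.0321), a call that was lost with any single sample but the first young one left out (0.0609 to 0.111).

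Of the other noncoding hosts listed by name, 8 were tested, and 0 rose and 1, again Rian, fell by limma (3 and 2 by unadjusted p). In 3 of the 8 all old samples were above all young ones and in 2 below, against 17.5% and 16% of all genes. The 3 above were named after their values were seen. Snhg17 had 3.06, 4.04 and 3.32 FPKM in young and 5.43, 4.89 and 5.64 FPKM in old samples (log2 change 0.61, SE 0.15, limma adjusted p = 0.0527). Epb41l4aos had 18.1 to 26.6 FPKM in young and 27.1 to 36.2 FPKM in old samples (log2 change 0.58, SE 0.17, limma adjusted p = 0.0744). Zfas1 had 29.7 to 39.1 FPKM in young and 39.6 to 52.1 FPKM in old samples (log2 change 0.39, SE 0.14, limma adjusted p = 0.120). Snhg14, which spans a large snoRNA cluster, had 44.4 to 66.9 FPKM in young and 31.2 to 40.3 FPKM in old samples without overlap, which did not pass the test (log2 change -0.62, SE 0.16, limma adjusted p = 0.0586, but 0.0218 without the third young sample).

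None of the 4 core proteins of box C/D snoRNAs passed the limma test (1 by unadjusted p), and all 4 overlapped between ages. The one was Fbl, the methyltransferase, named after its values were seen, with 2.82, 2.74 and 0.530 FPKM in young and 0.616, 0.348 and 0.653 FPKM in old samples (log2 change -1.48, SE 0.61, limma adjusted p = 0.171). The third young sample was as low as the old ones. Nop56, Nop58 and Snu13 had log2 changes of -0.14, -0.07 and 0.03. Of the 4 core proteins of box H/ACA snoRNAs Nhp2 rose, with 22.9, 22.2 and 23.0 FPKM in young and 27.0, 29.9 and 29.4 FPKM in old samples (log2 change 0.34, SE 0.07, limma adjusted p = 0.0358), and Dkc1, the pseudouridine synthase, was between 6.54 and 7.33 FPKM in all samples. None of 10 assembly factors passed the limma test (2 by unadjusted p). Of 6 genes of intron debranching and trimming 1 rose, Xrn2, a nuclear exonuclease that trims RNA from its front end, with 21.8 to 22.6 FPKM in young and 26.7 to 27.7 FPKM in old samples (log2 change 0.29, SE 0.07, limma adjusted p = 0.0429). The calls of Nhp2 and Xrn2 were lost with any single sample left out (limma adjusted p = 0.0561 to 0.132 and 0.0654 to 0.124). None of 10 genes of nonsense-mediated decay and none of 12 regulators of mRNAs with pyrimidine starts passed the limma test (2 and 0 by unadjusted p), with median log2 changes of -0.08 and -0.06.

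Among the genes whose pattern over the 6 samples was most like the mean log2 level of the members were Eif3e (Pearson r = 0.991), Rnf149 (r = 0.991), Ptprm (r = 0.986) and Ankmy1 (r = 0.986), out of 10392 genes with a mean of at least 5 FPKM. These are descriptions over 6 samples that share the contrast of age. After the group means were removed, the r of the 45 pairs of members ran from -0.94 (Snhg1 with Snhg15) to 0.95 (Snhg5 with Snhg8), with a median of -0.08 and 20 positive pairs, each over 6 samples.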

How the data were processed

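RNA of cochlear basilar membrane was sequenced as directional libraries of total RNA with 150 bp paired-end reads, in 3 young and 3 old samples grouped by their labels. The deposited values are FPKM per transcript and sample. Per the paper and the submitters' processing notes, the authors filtered reads, used GRCm38 as the genome, assembled transcripts with Cufflinks 2.1.1 and computed the FPKM with Cuffdiff 2.1.1. The notes also list CASAVA 1.8 and TopHat2 2.0.9. The annotation release, the scaling between libraries and the strand setting are not given in the sources used here.

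The 56671 transcripts were matched to GENCODE M21, of which 404 Ensembl transcripts were not matched and 992 carry the authors' own LNC_ names, and FPKM were summed per gene. limma 3.58.1 in R 4.3.3 (lmFit, eBayes with trend) was run on log2(FPKM + 0.1) for features with a mean of at least 0.1 FPKM, with age as the only term, and Benjamini-Hochberg adjustment covered all features tested. The prior carried 3.38 degrees of freedom for genes and 2.68 for transcripts (medians). Fold changes on this scale understate those of low genes. Shares of transcripts were compared by exact two-sided permutation. The code was tested on simulated data. Tables were made in Python 3.11.15 (pandas 2.3.3, numpy 2.4.6) and plots in matplotlib 3.10.9.

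Low FPKM values lie on steps of single fragments, which put the depth at 12280000 to 15410000 fragments per sample, with 93.3 to 94.8% of the values within 0.1 of a step where chance gives 20%. Estimated fragments carry counting error and also depend on the split of reads between transcripts and on the fitted depth. Sums of FPKM per sample were 576487 to 601724. Short transcripts are the least certain, because a fragment spans much of them.

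The members and all lists were chosen with earlier results of these data known. Named genes are the members with their transcripts, protein-coding genes that overlap a member or start within 2 kb, of each list up to 4 genes past the threshold and the 3 of highest level, the 5 genes most like the members and the 5 other hosts of highest level; the text prints those that a result needs. One of the 5 most like genes is not reported here. Of the listed other snoRNA host lncRNAs, Snhg4, Snhg7, Snhg9, Snhg10 and Snhg16 are not analysed here. The pseudocount, filter, scaling, variance trend, sample weights, replicate block, set of adjustment, minimum length of transcripts, sum or main transcript per gene, and each sample left out were varied. Same-numbered samples did not deviate together (r of 0.02, -0.04 and 0.01 over genes), so the numbers were not used as pairs.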

Additional observations from a re-analysis of the deposited data

How the results depend on the processing

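Levels of low transcripts rest on few fragments, and single transcripts of a gene share reads, so their FPKM are less certain than sums per gene. The cause of the differences between settings was not tested, except that leaving out a sample lowers the degrees of freedom.

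The reported number of genes past the threshold, 1787 (1063 higher, 724 lower), became 307 (206 and 101) without the filter, 392 (271 and 121) without the variance trend, 675 (410 and 265) with the replicate block and 15 (10 and 5) with adjustment over lncRNA genes only, and none of the 8 tested host genes passed in these 4 settings. In them the adjusted p of Snhg8 was 0.0706, 0.0917, 0.0538 and 0.0767. Taking the most abundant transcript in place of the sum gave 2 host genes as higher, Snhg8 and Gas5 (log2 change 0.75, limma adjusted p = 0.0286), and turned the change of Snhg5 to 0.078. The number of transcripts past the threshold, 290 (213 and 77), became 69 (44 and 25) without the filter, 496 (343 and 153) with a mean of at least 1 FPKM, 157 (97 higher) without the variance trend, 2 (2 and 0) with the replicate block and 1 (1 and 0) with adjustment over lncRNA transcripts only. Sample weights gave 121 lower transcripts. With the mean of at least 1 FPKM, 2 host transcripts passed as higher, Gas5-224 (limma adjusted p = 0.0494) and Snhg8-201 (0.0485). Sample weights also turned the changes of Snhg5-201 to -0.019 and of Dkc1 to -0.0053.

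With single samples left out, the number of genes past the threshold ranged from 59 to 1756 (708, 300 and 1756 without young samples 1, 2 and 3, and 378, 59 and 341 without old samples 1, 2 and 3; 44 to 935 higher, 15 to 821 lower), that of transcripts from 2 to 435 (28, 6 and 435 without a young and 2, 4 and 3 without an old sample, in the same order; 1 to 228 higher, 0 to 207 lower), that of host genes from 0 to 1 higher and 0 to 0 lower, that of host transcripts from 0 to 0 in either direction, and that of shares without overlap from 3 to 7 (3, 5 and 6, and 7, 6 and 5). The share of Gas5-224 differed by 14.7 to 17.5 percentage points. Alternatives were computed for 21 of the named genes and 17 of the host transcripts, and among these the log2 changes that turned sign were those of Snhg18 (-0.061 to 0.19), Snhg3-205 (-2.79 to 0.39), Snhg5-201 (-0.039 to 0.28), Snhg6-203 (-0.075 to 0.11), Gas5-209 (-0.24 to 0.12), Zbtb37 (-0.021 to 0.55) and Dkc1 (-0.014 to 0.073). Those of Snhg15 ran from 1.34 to 1.55 and those of 2410006H16Rik from 0.60 to 0.73. Their sign could not turn, since all old samples of these selected genes were above all young ones. Over the tested ones of these genes and transcripts and all settings, 500 recomputed changes kept their direction and side of the threshold, 50 calls were lost, 9 were gained and 13 changes turned sign.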
